A study of Mus musculus with 2 samples.

Results

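Csf1, Csf2 and Flt3l encode 3 secreted growth factors of myeloid and dendritic cells, and Csf1r, Csf2ra, Csf2rb, Csf2rb2 and Flt3 encode their receptor chains. These 8 genes, of the 32285 listed for each library, were taken by their symbols as a family of ligands and receptors, and their UMIs (counted molecules) were followed across cell classes. The family was chosen by the Csf1 level of T cells in an earlier analysis of the same libraries, so that difference is a description and not a test.

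CSF1 (M-CSF) binds CSF1R, a receptor tyrosine kinase on monocytes, macrophages and their precursors, and keeps these cells alive and dividing. CSF2 (GM-CSF) is made by activated lymphocytes, among other cells; its receptor joins a ligand-binding alpha chain, encoded by Csf2ra, to the signalling beta chain encoded by Csf2rb, which the receptors for IL-3 and IL-5 share. The mouse carries an additional beta chain gene, Csf2rb2, whose product serves IL-3. FLT3L binds FLT3, the receptor kinase on which dendritic cell development depends, and in tumors lymphocytes are known sources of FLT3L.

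The cells were leukocytes, sorted by flow cytometry for CD45, from tumors of B16-F10, a mouse melanoma line. Both groups were WT mice bearing this tumor: the Control group received vehicle, and the DOPAC group received 3,4-dihydroxyphenylacetic acid, a breakdown product of dopamine. Neither the age of the mice nor the dose is given in the sources used here. The design text gives 4 mice per group, but each group is 1 library with no map from cells to mice, so that a group is 1 sample, mice cannot be compared with each other, and no difference between groups was tested.

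The promoters of the 3 family members that held a match to either motif searched are shown here, because Csf1 had the largest difference in T cells and because PU.1, the myeloid factor encoded by Spi1, was itself measured in the receptor-bearing classes. The windows run from 250 bases before to 50 bases after the RefSeq transcription start (GRCm38.p6), 5' to 3' on the gene's strand, and 6 of the 8 genes had an entry. Capitals mark matches on either strand to an NF-kappa-B motif of 10 letters, whose reverse complement is the run in capitals in the Csf1 window, or to GAGGAAG, a PU.1 motif; the motifs do not overlap each other in these windows. The windows are chr3:107760420-107760719 (minus strand) for Csf1, chr19:61228369-61228668 (minus strand) for Csf2ra and chr15:78305672-78305971 (minus strand) for Csf2rb2.
Csf1: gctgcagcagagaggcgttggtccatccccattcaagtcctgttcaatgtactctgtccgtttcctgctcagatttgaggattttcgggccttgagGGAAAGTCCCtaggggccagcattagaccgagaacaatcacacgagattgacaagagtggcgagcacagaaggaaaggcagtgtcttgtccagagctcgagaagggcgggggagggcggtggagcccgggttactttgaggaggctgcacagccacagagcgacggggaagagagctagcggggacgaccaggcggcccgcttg
Csf2ra: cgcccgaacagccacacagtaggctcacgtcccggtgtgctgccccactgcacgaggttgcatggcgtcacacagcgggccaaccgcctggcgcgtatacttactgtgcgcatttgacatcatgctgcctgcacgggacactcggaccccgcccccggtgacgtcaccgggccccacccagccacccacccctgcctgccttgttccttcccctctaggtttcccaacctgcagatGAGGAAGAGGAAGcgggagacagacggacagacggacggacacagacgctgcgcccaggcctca
Csf2rb2: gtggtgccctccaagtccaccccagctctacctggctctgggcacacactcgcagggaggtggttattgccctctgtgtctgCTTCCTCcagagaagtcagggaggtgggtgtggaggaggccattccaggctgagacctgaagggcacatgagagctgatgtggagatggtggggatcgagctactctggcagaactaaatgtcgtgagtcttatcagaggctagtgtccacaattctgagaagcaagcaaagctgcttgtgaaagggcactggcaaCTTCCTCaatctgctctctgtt

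The Csf1 window held 1 NF-kappa-B match, on the reverse strand, a motif found in 51 of 32544 promoter windows of 300 bases (0.157%). The Csf2ra window held 2 PU.1 matches on the forward strand that overlap each other, and the Csf2rb2 window held 2 on the reverse strand. That shorter motif was found in 4367 windows (13.4%). The windows of Csf2, Flt3l and Flt3 held neither motif. A match is a stretch of letters and does not show binding.

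The gene bodies lie, in GRCm38, at chr3:107741048-107760469 for Csf1, chr11:54247271-54249667 for Csf2, chr7:45129788-45136432 for Flt3l, chr19:61223957-61228429 for Csf2ra and chr5:147330741-147400489 for Flt3, all on the minus strand. Csf2rb (chr15:78325752-78353847, plus strand) and Csf2rb2 (chr15:78282507-78305721, minus strand) are neighbours and close copies. Their longest transcripts, of 4900 and 4740 bases, were identical at 90.8% of aligned bases. Reads of 90 bases from either could not be told apart over 8.47% of positions, but over 0% of positions in the last 1000 bases, where 3' tags would fall. Flt3l overlaps Gm45713 on the same strand over 6444 bases, and Csf1r overlaps Hmgxb3 over 873 bases on the opposite strand.

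The Control library was the deeper, with 8105 kept cells at a median of 9320 UMIs, against 9280 cells at a median of 3592 UMIs for DOPAC; 24 kept cells shared a barcode between libraries. Cells were placed in 16 classes by UMIs of marker genes, none of which is a member of the family, and 17.2% of Control and 27.3% of DOPAC cells remained unassigned. The CD8 T class held 651 Control and 3194 DOPAC cells, NK cells 903 and 773, macrophages 1013 and 552, classical monocytes 955 and 686, conventional dendritic cells of type 1 (cDC1) 304 and 112, of type 2 (cDC2) 303 and 72, mature dendritic cells 338 and 131 and plasmacytoid dendritic cells 413 and 64. Of the markers not used for gating, each was seen in at least 10% of the cells of the class it names, except in gamma delta T cells (2 of 4 in Control, 1 of 4 in DOPAC) and nonclassical monocytes (4 of 5 in both). The macrophage check list averaged 981 CPM (counts of a gene scaled to a common class total, as counts per 1000000 UMIs) in Control and 448 CPM in DOPAC macrophages, and nonclassical monocytes had 2254 CPM of the classical check list against 104 CPM of their own in Control. Intervals below are exact 95% Poisson intervals of summed UMIs, or of the ratio of 2 sums, and exact binomial intervals of shares; they cover counting error only, and cells are not replicates.

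Csf1 was the ligand with the largest difference between libraries. In CD8 T cells it stood at 4.55 CPM in Control (25 UMIs in 10 cells, 10 of them in 1 cell) and 38.6 CPM in DOPAC (717 UMIs in 513 cells). The DOPAC level was 8.48-fold higher (5.70 to 13.2), and the intervals of the levels did not overlap. CD4 T cells had 1.46 CPM (2 UMIs) in Control and 65.5 CPM (27 UMIs in 16 cells) in DOPAC. T cells with neither CD8 nor CD4 markers alone had 2.76 and 28.9 CPM, a 10.4-fold difference (5.22 to 23.7). Regulatory T cells, at 6.48 and 57.8 CPM, rested on 5 and 13 UMIs, 7 of the latter in 1 cell. All 4 of these T classes were higher in DOPAC, while the gamma delta T class had too few DOPAC cells (28) to show a level.

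NK cells did not share this difference. Csf1 stood there at 4.67 CPM in Control (27 UMIs in 23 cells) and 1.45 CPM in DOPAC (4 UMIs), 3.21-fold lower in DOPAC (1.12 to 12.6). The Control NK level lay among those of mature dendritic cells (5.04 CPM), cDC2 (4.03 CPM) and B cells (3.94 CPM), with overlapping intervals. No loss of expression in NK cells is read from levels so low. To set cells of the deeper and the shallower library side by side, each cell was thinned to 1000 UMIs. Csf1 was then seen in 0 of 650 Control CD8 T cells, which allows a share of up to 0.462%, and in 3.52% of 3178 DOPAC CD8 T cells (2.91% to 4.23%); without thinning these were 1.54% and 16.1% (median depth 7507 UMIs in Control, 4848 in DOPAC). In the same DOPAC library 0 of 768 thinned NK cells had a Csf1 UMI (up to 0.391%; 0.517% unthinned, median 2879 UMIs), so the DOPAC CD8 T share lay above that of another lymphocyte class of its own library.

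**Figure D1:**
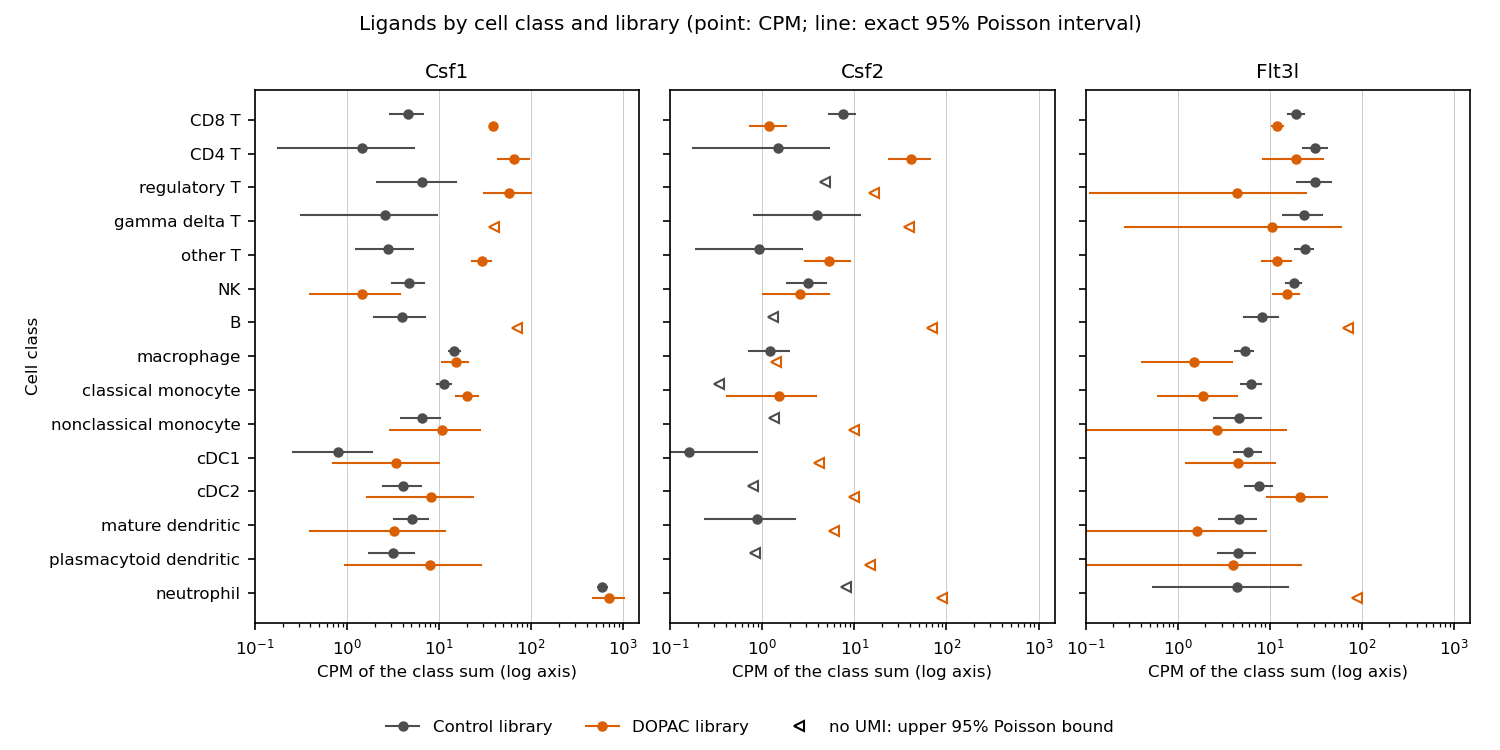
CPM of Csf1, Csf2 and Flt3l (log axes) in 15 cell classes of the Control (grey) and DOPAC (orange) libraries; points are class sums, lines exact 95% Poisson intervals, and open triangles the upper bound where no UMI was seen. Csf1 in CD8 T cells moved from 4.55 to 38.6 CPM, while neutrophils had the highest Csf1 level in both libraries, at 594 and 703 CPM.

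The CD8 T class was made up differently in the libraries, and Csf1 was followed through its states. Cells with UMIs of the naive-like genes Lef1 or Tcf7 and of no checkpoint gene (Pdcd1, Havcr2, Lag3) were 73.1% of the Control class and 6.39% of the DOPAC class. Cells with checkpoint genes only were 5.07% and 63.7%. Any UMI of a state gene counted, at median depths of 7507 UMIs in Control and 4848 in DOPAC, and the part of depth in these shares was not tested. In naive-like cells Csf1 was at 3.20 CPM in Control (12 UMIs in 3 cells, 10 in 1 cell) and 14.0 CPM in DOPAC (11 UMIs), a 4.38-fold difference (1.75 to 10.8). In checkpoint-only cells it was at 25.1 CPM in Control (9 UMIs in 4 of 33 cells) and 43.1 CPM in DOPAC (539 UMIs in 375 of 2033 cells). In the checkpoint-only cells the ratio was 1.71, with an interval from 0.896 to 3.77, so that a difference was not detectable there at this depth. In cells with genes of both kinds Csf1 was at 3.09 CPM (4 UMIs) and 32.8 CPM (109 UMIs), a 10.6-fold difference (4.04 to 39.7). The make-up of the class thus moved with the class level, and its part in the difference was not tested. Over all CD8 T cells without naive-like genes the ratio was 2.04 (1.07 to 4.48), resting on 9 Control UMIs.

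Csf1 in DOPAC CD8 T cells varied little with the cell cycle, at 38.8 CPM in cells with Mki67 or Top2a UMIs and 38.4 CPM in the others. It was at 43.6 CPM (39.6 to 48.0) in cells with a UMI of Ifng, the interferon of activated T cells, and 33.1 CPM (29.4 to 37.1) in those without. In Control the cycling cells had 7.78 CPM (12 UMIs) and the others 3.29 CPM (13 UMIs), with overlapping intervals.

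**Figure D2:**
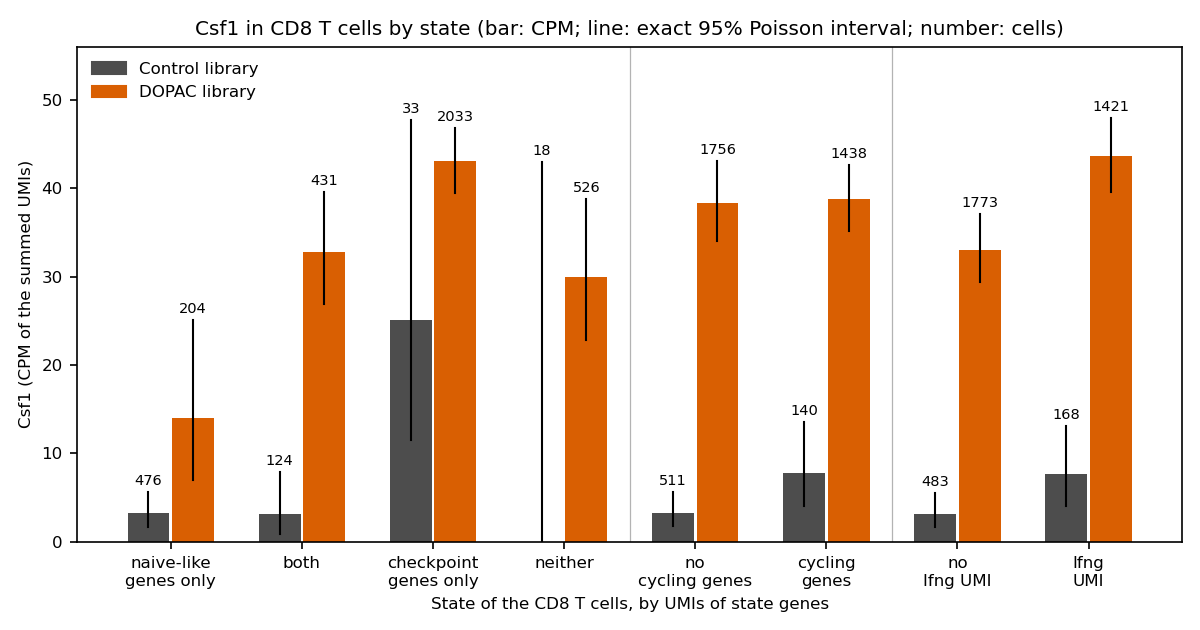
Csf1 CPM in CD8 T cells of each library split by naive-like and checkpoint genes (left), cycling genes (middle) and Ifng (right); bars are summed UMIs, lines exact 95% Poisson intervals and numbers the cells. The libraries' intervals overlap in the 33 and 2033 checkpoint-only cells (25.1 and 43.1 CPM) and in cells with neither gene set, and are apart in naive-like-only cells (3.20 and 14.0 CPM) and in cells with both (3.09 and 32.8 CPM).

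Outside the lymphocytes, neutrophils held the highest Csf1 level of any class, at 594 CPM in Control (269 UMIs in 63 of 113 cells) and 703 CPM in DOPAC (29 UMIs in 15 of 30 cells). The ratio of these was 1.18 (0.777 to 1.74). Macrophages had 14.6 and 15.2 CPM, a ratio of 1.04 (0.724 to 1.46). Classical monocytes had 11.3 and 20.3 CPM, 1.80-fold higher in DOPAC (1.28 to 2.50). Of 8 measured cytokines of activated lymphocytes, 3 were at least 1.5-fold higher in that class and 0 lower. All genes had 15.6% higher and 15.9% lower there. The 3 were Ifng (2.20 and 15.1 CPM), Xcl1 (10.6 and 20.7 CPM) and Ccl5 (396 and 879 CPM). Ltb (6.34 and 6.02 CPM), Ccl3 (1363 and 1306 CPM), Ccl4 (2987 and 3015 CPM), Tnf (610 and 530 CPM) and Tnfsf14 (24.7 and 29.7 CPM) differed less. The T cell check list had a mean of 5.45 and 18.9 CPM. The part of these genes in the Csf1 result was not tested. In Control, the levels below neutrophils followed in a continuous order from macrophages to cDC1 (0.793 CPM), each neighbour's interval overlapping the next. In DOPAC, among classes with at least 50 cells, the order began with CD4, regulatory, CD8 and other T cells, each overlapping the next, and ended with NK cells.

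The kept Control cells held 1002 Csf1 UMIs among 91632302 of all genes and the DOPAC cells 1106 among 41613885, and they lay in different classes. In Control 4.29% lay in T cells, and in DOPAC 75.3% did. CD8 T cells alone held 2.50% and 64.8%. Monocytes and macrophages held 35.6% and 8.86%, neutrophils 26.8% and 2.62%, and unassigned cells 23.4% and 11.9%. These shares count cells as well as RNA per cell: CD8 T cells were 8.03% of the kept Control cells and 34.4% of the DOPAC cells.

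Csf2 was sparse, with 147 UMIs in all kept Control cells and 78 in the DOPAC cells, and single cells decided its class levels. Control CD8 T cells had 41 UMIs in 6 cells, 32 of them in 1 cell, or 7.47 CPM, and DOPAC CD8 T cells had 22 UMIs in 20 cells, or 1.19 CPM. The log2 ratio of DOPAC over Control (with 1 count added to each sum) was -2.63 with all cells and -0.69 without the cell with the most UMIs in each library. Of the 41 Control UMIs, 39 lay in 4 of the 9 cells that had UMIs of Ccl1, a chemokine of activated T cells. In DOPAC, the 46 CD8 T cells with Ccl1 held 3 of the 22 UMIs.

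CD4 T cells had 2 Csf2 UMIs in Control and 17 in 4 cells in DOPAC, 11 of these in 1 cell (1.46 and 41.2 CPM). Other T cells had 3 UMIs in 3 cells and 14 UMIs in 6 cells, 9 of these in 1 cell (0.921 and 5.32 CPM). NK cells had 18 UMIs in 11 cells in Control and 7 UMIs in 4 cells in DOPAC (3.11 and 2.55 CPM), a ratio of 0.818 (0.289 to 2.05). The macrophage level of 1.22 CPM in Control rested on 2 cells, 1 of which held 16 of the 18 UMIs, and no DOPAC macrophage had a UMI. A single cell thus held most of the Csf2 UMIs in Control CD8 T cells and macrophages and in DOPAC CD4 and other T cells, but not in DOPAC CD8 T cells, and 57 of the 147 Control UMIs lay in unassigned cells.

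Flt3l was spread over many lymphocytes at low level, with at most 3 UMIs in any CD8 T cell. CD4 T cells had 31.4 CPM in Control and 19.4 CPM in DOPAC, regulatory T cells 31.1 and 4.45 CPM (24 UMIs and 1 UMI), and other T cells 24.0 and 12.2 CPM. CD8 T cells had 19.3 CPM in Control (106 UMIs in 98 cells) and 12.1 CPM in DOPAC (225 UMIs in 213 cells), 1.59-fold lower in DOPAC (1.25 to 2.02). NK cells had 18.3 and 15.3 CPM, and the interval of their ratio, 0.568 to 1.20, included 1. In Control the 6 T and NK classes, from 18.3 to 31.4 CPM, stood above B cells (8.24 CPM) and the myeloid and dendritic classes (4.41 to 7.63 CPM).

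Among those other classes, Flt3l was lower in DOPAC in macrophages (5.35 and 1.52 CPM, 79 and 4 UMIs) and classical monocytes (6.34 and 1.88 CPM, 69 and 5 UMIs). It was higher in cDC2, at 7.63 CPM (36 UMIs) and 21.5 CPM (8 UMIs in 7 cells). T cells held 31.1% of 864 Control UMIs and 66.9% of 399 DOPAC UMIs. The direction in CD8 T cells was therefore opposite for the ligands: Flt3l was lower and Csf1 higher in DOPAC.

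**Figure D3:**
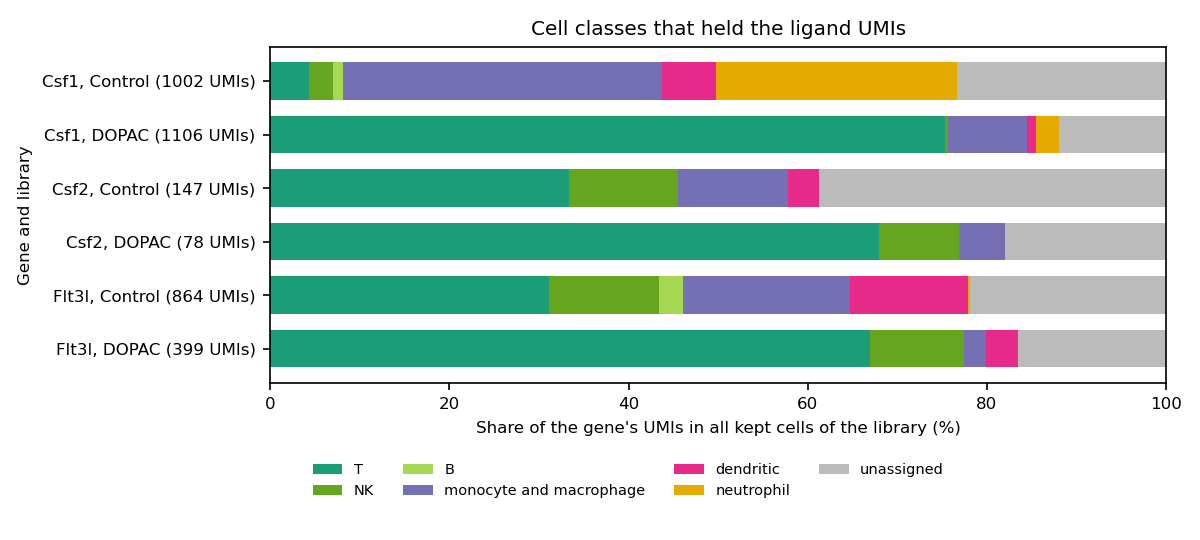
Share of each ligand's UMIs held by the cell classes of each library (horizontal axis, percent of the UMIs in all kept cells; 1 bar per gene and library). For Csf1 the T cell share was 4.29% in Control and 75.3% in DOPAC, while neutrophils went from 26.8% to 2.62%.

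Csf1r marked monocytes and macrophages in both libraries. In Control it was at 382 CPM in nonclassical monocytes, 310 CPM in classical monocytes and 303 CPM in macrophages, the latter 2 with overlapping intervals. In DOPAC the same classes had 513, 277 and 198 CPM, with intervals apart. The level was thus lower in DOPAC macrophages by 1.53-fold (1.39 to 1.67), lower in classical monocytes by 1.12-fold (1.03 to 1.21), and 1.34-fold higher (1.15 to 1.57) in nonclassical monocytes, the class least set apart by its check markers.

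The macrophage difference in Csf1r was smaller when cells were both gated and counted on thinned UMIs. Its log2 ratio was -0.61 with all UMIs and -0.11 when cells were gated and counted after thinning to 1000 UMIs (294 and 119 UMIs). Split by state, macrophages with UMIs of Cxcl9, an interferon-induced chemokine, and not of Arg1, the arginase of alternatively activated macrophages, had 306 CPM in Control and 193 CPM in DOPAC. Those with Arg1 only had 311 and 176 CPM, and those with neither 310 and 224 CPM. Csf1r was lower in DOPAC in each state, although Cxcl9-only cells were 12.0% of Control and 37.7% of DOPAC macrophages. Any UMI of a state gene set the state, at median depths of 13157 UMIs in Control and 4453 in DOPAC. The part of depth in these shares was not tested. The lower macrophage check list in DOPAC (448 against 981 CPM) moved with this result, and its part was not tested.

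Among dendritic cells Csf1r was highest in cDC2, at 90.8 and 83.5 CPM, a ratio of 0.920 (0.617 to 1.33). cDC1 had 12.1 CPM in Control (76 UMIs in 57 cells) and 25.9 CPM in DOPAC (23 UMIs in 12 cells), 2.15-fold higher (1.29 to 3.46). The Control cDC1 level lay in the range of the Control lymphocyte classes (9.68 to 32.4 CPM), while the DOPAC level stood above the DOPAC lymphocyte classes with at least 50 cells (0 to 19.8 CPM), its interval overlapping that of other T cells. In CD8 T cells Csf1r was at 14.9 and 9.0 CPM and in NK cells at 9.68 and 3.27 CPM. After thinning, a Csf1r UMI was seen in 25.2% of 1004 Control and 18.9% of 533 DOPAC macrophages, against 1.22% of 903 Control and 0.651% of 768 DOPAC NK cells (unthinned 88.5%, 51.8%, 5.98% and 1.03%, at median depths of 13157, 4453, 5853 and 2879 UMIs). No expression of Csf1r in NK cells is read from so low a share.

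Csf2ra, the ligand-binding chain of the GM-CSF receptor, was nearly level between libraries in most myeloid and dendritic classes. Macrophages had 153 and 148 CPM (ratio 0.968, 0.867 to 1.08), classical monocytes 215 and 227 CPM (1.06, 0.963 to 1.15), and cDC1 107 and 116 CPM (1.09, 0.876 to 1.34). cDC2 had 187 and 180 CPM, and mature dendritic cells 89.2 and 90.8 CPM. Nonclassical monocytes had 213 and 313 CPM, 1.47-fold higher in DOPAC (1.19 to 1.79). NK cells had 16.6 and 9.82 CPM, 1.69-fold lower in DOPAC (1.09 to 2.70). In Control the levels of neutrophils, classical and nonclassical monocytes and cDC2 (187 to 216 CPM) did not differ beyond their intervals from one neighbour to the next, and plasmacytoid dendritic cells were lowest of the myeloid and dendritic classes at 36.3 CPM.

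The beta chain genes differed in opposite directions between libraries in macrophages, classical monocytes, cDC1 and mature dendritic cells. Csf2rb was at 181 CPM in Control and 143 CPM in DOPAC macrophages, 309 and 232 CPM in classical monocytes, 381 and 316 CPM in cDC1, 420 and 337 CPM in cDC2 and 306 and 229 CPM in mature dendritic cells. It was lower in DOPAC in each of these 5 classes, by 1.20-fold to 1.34-fold, and level in plasmacytoid dendritic cells (269 and 266 CPM). In classical monocytes the difference was 1.33-fold (1.22 to 1.45).

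Csf2rb2 was at 38.4 CPM in Control and 59.4 CPM in DOPAC macrophages, 52.1 and 75.6 CPM in classical monocytes, 43.1 and 68.7 CPM in cDC1 and 54.4 and 84.3 CPM in mature dendritic cells. It was higher in DOPAC in these 4 classes, by 1.45-fold to 1.59-fold, with 1.55-fold (1.29 to 1.85) in macrophages. Plasmacytoid dendritic cells had the highest level in both libraries, at 193 and 222 CPM, and there the ratio was 1.15 (0.862 to 1.51). In cDC2 the ratio was 0.834 (0.487 to 1.34), on 18 DOPAC UMIs.

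As a share of the UMIs of both genes, Csf2rb2 made up 17.5% (16.2% to 18.8%) in Control and 29.3% (25.4% to 33.3%) in DOPAC macrophages. The share went from 14.4% to 24.6% in classical monocytes, from 10.2% to 17.8% in cDC1 and from 15.1% to 26.9% in mature dendritic cells, in each case with intervals apart. It was 41.8% and 45.5% in plasmacytoid dendritic cells, 12.2% and 12.6% in cDC2 and 10.4% and 12.1% in nonclassical monocytes, with overlapping intervals. The log2 ratio of both genes summed was -0.11 in macrophages and -0.23 in classical monocytes. Within macrophages, Csf2rb2 was at 50.1 and 48.5 CPM in the Cxcl9-only cells, and 28.7 and 75.0 CPM in cells with neither Cxcl9 nor Arg1, so that the levels were close in the former and apart in the latter.

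**Figure D4:**
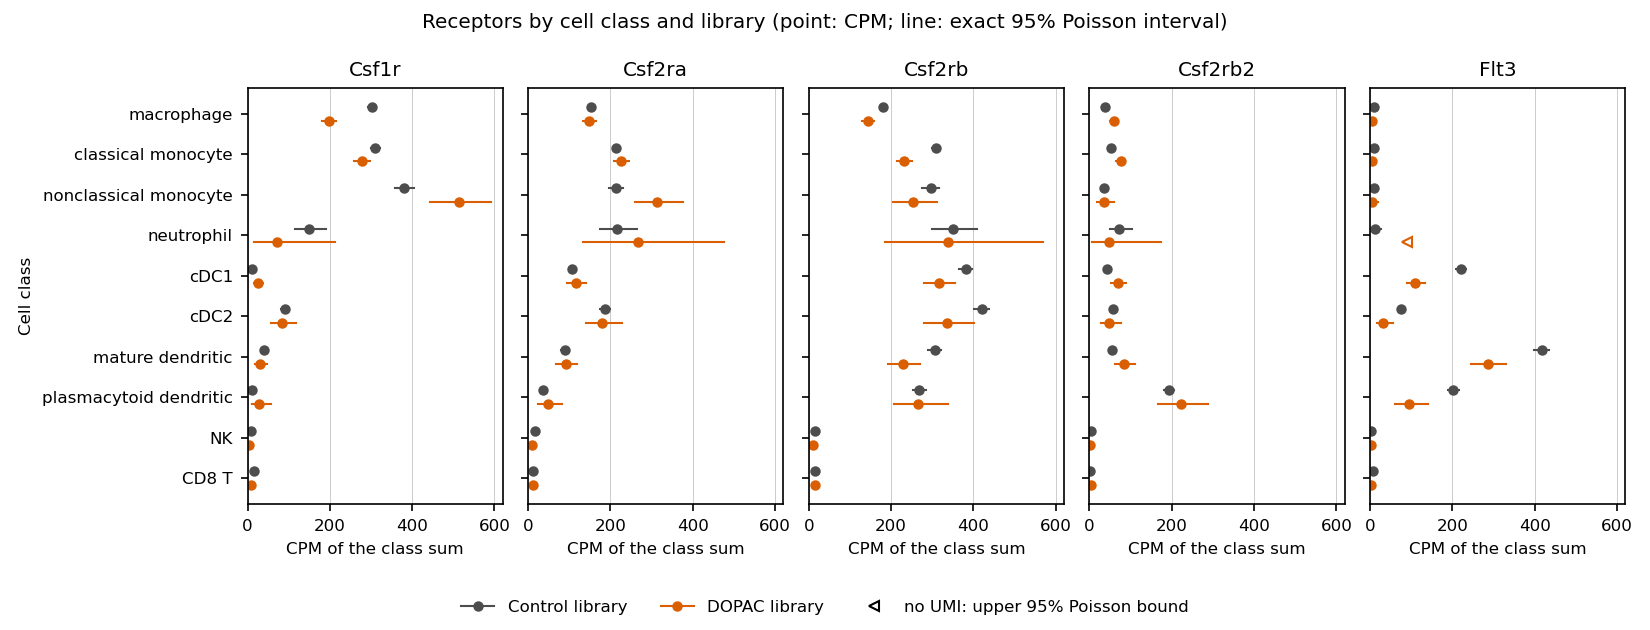
CPM of the 5 receptor genes in 8 myeloid and dendritic classes and in NK and CD8 T cells of the Control (grey) and DOPAC (orange) libraries, on linear axes from 0; points are class sums, lines exact 95% Poisson intervals and the open triangle an upper bound. Csf2ra points nearly coincide in macrophages (153 and 148 CPM), and Flt3 points lie lower in DOPAC in all 4 dendritic classes.

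**Figure D5:**
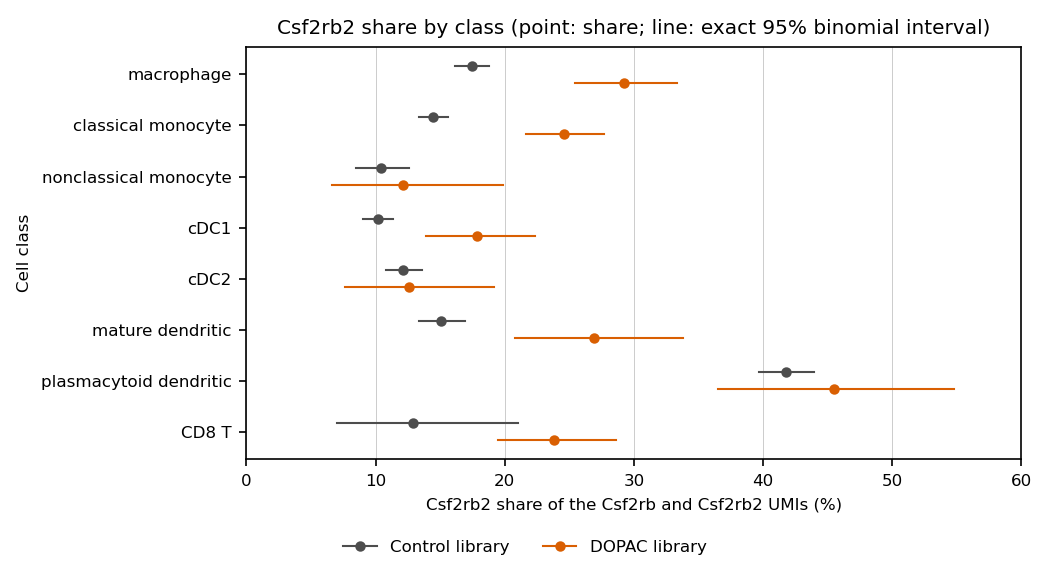
Share of Csf2rb2 in the summed Csf2rb and Csf2rb2 UMIs (horizontal axis, percent) in 8 classes of the Control (grey) and DOPAC (orange) libraries, with exact 95% binomial intervals. The intervals are apart in macrophages, classical monocytes, cDC1 and mature dendritic cells, and overlap in nonclassical monocytes, cDC2, plasmacytoid dendritic cells and CD8 T cells.

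Lymphocytes held few beta chain UMIs: CD8 T cells had 16.0 and 14.5 CPM of Csf2rb and NK cells 14.5 and 9.82 CPM. In other T cells both genes were higher in DOPAC, Csf2rb at 20.9 and 33.8 CPM (1.62-fold, 1.17 to 2.25) and Csf2rb2 at 2.15 and 8.74 CPM (7 and 23 UMIs); on thinned cells the log2 ratio of Csf2rb there was -0.92. Control regulatory T cells stood apart with 119 CPM, but their 92 UMIs lay in 10 of 70 cells, up to 29 in 1 cell. The same class had 42.8 CPM of Csf2ra and 32.4 CPM of Csf1r in Control.

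Flt3 was a dendritic cell gene and was lower in DOPAC in all 4 dendritic classes. Mature dendritic cells had 417 CPM in Control (1900 UMIs in 265 cells) and 285 CPM in DOPAC (176 UMIs in 70 cells), 1.46-fold lower (1.25 to 1.71). cDC1 had 220 CPM (1389 UMIs) and 109 CPM (97 UMIs), 2.02-fold lower (1.64 to 2.50). Plasmacytoid dendritic cells had 202 and 95.1 CPM, 2.12-fold lower (1.42 to 3.33), and cDC2 75.5 and 32.3 CPM, 2.34-fold lower (1.32 to 4.56). Both libraries placed mature dendritic cells first, cDC1 and plasmacytoid cells next with overlapping intervals, and cDC2 last. The difference was not particular to dendritic cells. At low levels, Flt3 was also lower in DOPAC CD8 T cells (6.56 and 2.26 CPM), macrophages (8.26 and 3.81 CPM) and classical monocytes (9.74 and 5.27 CPM). In other T cells it was nearly level (3.99 and 4.18 CPM).

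The Flt3 difference in cDC1 had a log2 ratio of -1.0 with all UMIs and -1.06 when gated and counted on thinned cells, there on 8 and 4 UMIs. In mature dendritic cells these values were -0.54 and -0.75, on 121 and 28 UMIs. In plasmacytoid dendritic cells the log2 ratio went from -1.03 to -0.17 on 51 and 6 thinned UMIs, so that no difference was detectable there on so few UMIs. Among thinned cells of the classes as gated on all UMIs, 22.4% of 304 Control cDC1 (17.8% to 27.5%) and 10.7% of 112 DOPAC cDC1 (5.66% to 18.0%) had a Flt3 UMI; without thinning these were 93.8% and 48.2% (median depth 19876 UMIs in Control, 7063 in DOPAC). In NK cells, taken as a class that should lack it, thinned shares were 0.332% and 0.130% (1.99% and 0.388% unthinned, at median depths of 5853 and 2879 UMIs). T cell check genes averaged 16.1 CPM in DOPAC and 3.96 CPM in Control cDC1, and their part in the Flt3 difference was not tested. Control B cells had 26.9 CPM of Flt3 (75 UMIs in 67 cells), the highest level outside the dendritic classes.

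The members were set beside all genes measured in the same class. With a difference called at 1.5-fold or more in the log2 ratio with 1 count added, among genes with at least 20 UMIs in both sums together, 2 of the 8 members were higher (Csf1 and Csf2rb2) and 4 lower (Csf2, Flt3l, Csf1r and Flt3) in DOPAC CD8 T cells. The Csf2rb2 log2 ratio turned to -0.94 without naive-like cells and -0.090 in cells with a checkpoint gene, and that of Csf2 was -0.69 without the cell with the most UMIs in each library. Of all 12437 genes so measured, 18.8% were higher and 22.2% lower. In NK cells no member was higher and 5 were lower (Csf1, Csf1r, Csf2ra, Csf2rb2 and Flt3), where 12% of all genes were higher and 18.7% lower. The NK levels of these 5 were low, at 3.11 to 16.6 CPM in Control. Csf2rb2 (27 and 6 UMIs) and Flt3 (18 and 3 UMIs) had NK ratio intervals that included 1. In macrophages 1 of 7 measured members was higher (Csf2rb2) and 3 were lower (Flt3l, Csf1r and Flt3), beside 15% and 16.8% of all genes. Flt3l rested there on 79 and 4 UMIs and Flt3 on 122 and 10 UMIs. In cDC1, Csf1r and Csf2rb2 were higher and Flt3 was lower, beside 21.5% and 13.8%. Over all genes, the class medians of the log2 ratio ran from -0.088 in NK cells to 0.095 in cDC1.

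The wider pathway was read from 4 lists. Of 26 genes of shared signalling below these receptors, 5 were higher and 8 lower in DOPAC CD8 T cells. Their median log2 ratio was -0.02 beside -0.04 for all genes, of which 18.8% were higher and 22.2% lower. Socs3, a feedback inhibitor of cytokine signalling, went from 106 to 16.1 CPM and Socs1 from 65.8 to 22.2 CPM. Socs2 and Cish, of the same family, were higher in DOPAC. Socs2 was at 2.19 and 9.21 CPM (12 and 171 UMIs) and Cish at 25.7 and 41.9 CPM. Stat3 went from 679 to 1392 CPM and Stat5b, which relays GM-CSF among other signals, from 310 to 125 CPM. In macrophages 4 of the 26 were higher and 3 lower (median 0.11 beside -0.04), beside 15% and 16.8% of all genes. Socs1 went there from 19.2 to 42.2 CPM, Cblb, which helps remove activated receptors, from 132 to 236 CPM, and Dok2, an adaptor that restrains kinase signalling, from 109 to 50.6 CPM.

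Of 13 cytokines of activated lymphocytes, 12 were measured in CD8 T cells, 4 higher and 4 lower, beside 18.8% and 22.2% of all genes. Their median was -0.25 beside -0.04 for all genes. The chemokine genes Ccl3 and Ccl4 went from 85.3 to 276 CPM and from 225 to 477 CPM, and Ifng from 70.0 to 190 CPM; Ccl1 went from 18.9 to 6.20 CPM. In CD4 T cells 6 of 9 measured cytokines were higher and 2 lower (median 1.04 beside 0.03 for all genes; 20% of all genes were higher and 18.9% lower). Ccl1 had 1 UMI in Control and 57 in DOPAC there, and Tnfsf11, the osteoclast factor RANKL, went from 86.3 to 182 CPM. In NK cells 2 of 10 were higher and 5 lower (median -0.55 beside -0.09 for all genes), beside 12% and 18.7% of all genes. The higher ones were Ccl1 (0.346 and 8.73 CPM, 2 and 24 UMIs) and Tnfsf11 (1.21 and 6.91 CPM, 7 and 19 UMIs). Among the lower ones, Ccl3 was at 590 and 212 CPM and Xcl1, a chemokine that attracts cDC1, at 1178 and 714 CPM.

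Among 19 transcription factors of dendritic and macrophage growth, Spi1 was lower in DOPAC in macrophages (403 and 241 CPM), classical monocytes (459 and 214 CPM), cDC1 (321 and 166 CPM) and mature dendritic cells (326 and 139 CPM). In cDC1, 5 of the 19 were higher and 3 lower (median 0.03 beside 0.09), beside 21.5% and 13.8% of all genes. Zbtb46, a factor of conventional dendritic cells, went from 139 to 72.1 CPM and Nfil3, needed for cDC1, from 77.6 to 45.0 CPM, while Klf4, a monocyte factor, went from 46.3 to 132 CPM. In mature dendritic cells 3 of 18 were higher and 1 lower, beside 19.1% and 16.8% of all genes; Id2 went from 795 to 1458 CPM and Irf8 from 435 to 673 CPM. In classical monocytes 2 of 19 were higher, Maf (164 to 391 CPM) and Klf4 (95.8 to 204 CPM), and 2 lower, beside 15.6% and 15.9%.

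Other ligands and receptors of these families were sparse. Of 9 such genes, 5 were measured in macrophages. Csf3, encoding G-CSF, was at 23.1 CPM in Control (341 UMIs) and 11.8 CPM in DOPAC (31 UMIs), and Kitl, the ligand of the KIT receptor, at 8.80 and 14.8 CPM. In CD8 T cells Il3ra, the alpha chain of the IL-3 receptor, had 6.56 and 11.2 CPM.

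Each member's pattern over 27 class and library sums of at least 50 cells was set against those of 12087 genes by Pearson's r of log2(CPM + 1). The sums share libraries and depth, so the values are descriptions. Csf2 was most like Ccl1 (0.88), Csf1 most like Hspa4l (0.83), and Flt3l most like Kcnk5 (0.86). Csf1r was most like the C-type lectin genes Clec4a1 (0.97) and Clec4a2 (0.96), Csf2ra like Sestd1 (0.98), Csf2rb like Alpk1 (0.97) and Alox5ap (0.96), Csf2rb2 like Fmnl2 (0.96), and Flt3 like Tbc1d8 (0.92). The ligands thus had weaker nearest neighbours, from 0.83 to 0.88, than the receptors, from 0.92 to 0.98. Csf2 was sparse and Flt3l low, and the part of counting error in this was not tested.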

How the data were processed

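Per the file headers, the authors made the deposited counts with Cell Ranger 7.0.1; they are whole-number UMI counts per gene and barcode, not normalized, on GRCm38 per the submitters' processing notes. Whether intronic reads were counted is not given in the sources used here. The labels' protocol speaks of colon tissue, whereas the tissue label and design text name tumors; the latter were followed.

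Barcodes under 500 UMIs, under 200 genes or over 10% mitochondrial UMIs were dropped, leaving the rest (8444 of 9629 Control, 10095 of 10777 DOPAC). Scrublet (scanpy 1.11.5) removed 339 Control cells; its automatic threshold marked 0 DOPAC cells, so the 815 with the highest scores, the expected rate, were removed. Kept cells held 91632302 and 41613885 UMIs.

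A cell entered a class with at least 2 UMIs of that class's markers (macrophages, classical monocytes, neutrophils and melanoma cells 3). Cells with at least 2 UMIs of most other lineages' markers were left out. T cells were divided by any UMI of the CD8, CD4 or Foxp3 markers. Macrophage UMIs had to be fewer than the class's own in T, NK and B cells. Dendritic cells, neutrophils and melanoma cells could hold fewer than 10 macrophage UMIs, whatever their depth. Macrophages and classical monocytes were parted by the larger of their 2 counts, and nonclassical monocytes were not compared with either. The minimums were set after cell numbers and check markers were seen, without the 8 genes. The members, lists and markers were chosen with earlier results of these data known.

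UMIs were summed per class and library and given as CPM. The log2 ratio is DOPAC over Control with 1 count added to each sum; fold ratios are of the CPM. With 1 library per group no test was made, and the groups are those of the treatment label. Intervals came from scipy 1.17.1. The calculations were tested on simulated data. Named are the 8 genes, the 3 genes most like each by Pearson's r among those with at least 200 UMIs (of which the text gives the first 1 or 2), and of each list up to 4 genes at least 1.5-fold apart in each direction. Csf3 with Kitl in macrophages, Il3ra in CD8 T cells and Spi1 across classes fall under the same rule. Promoters are RefSeq windows of the GRCm38.p6 table. Alternatives were doublets kept, a mitochondrial limit of 5%, gating and counting on cells thinned to 1000 UMIs, 1 more marker UMI, per-cell means, other scalings, 0.5 counts added, T cell and macrophage subsets, both beta chain genes summed and a list minimum of 50 UMIs. Leaving out the cell with the most UMIs of a gene was added after seeing the data.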

Additional observations from a re-analysis of the deposited data

Results flagged for a closer look

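The direction of Csf1 differed between cell classes under the same contrast. Its log2 ratio of DOPAC over Control was 3.03 in CD8 T cells, 4.95 in CD4 T cells, 3.25 in other T cells and 0.86 in classical monocytes, and -1.41 in NK cells. In classical monocytes 3 of 8 measured cytokines of activated lymphocytes were also at least 1.5-fold higher in DOPAC. These were Ifng (2.20 and 15.1 CPM), Xcl1 (10.6 and 20.7 CPM) and Ccl5 (396 and 879 CPM), and their part was not tested. The counting interval of each Csf1 ratio excluded 1, in opposite directions. The NK value rested on 27 and 4 UMIs. The NK levels, 4.67 and 1.45 CPM, were low, and no loss of expression is read from them. The difference between classes was not tested, since each class had 1 sum per library.

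Csf1r also had opposite directions. Its log2 ratio was -0.74 in CD8 T cells, -1.44 in NK cells and -0.61 in macrophages, and 1.15 in cDC1. The levels were low in CD8 T cells (14.9 and 9.0 CPM) and NK cells (9.68 and 3.27 CPM), and no expression is read from the NK level. The Control cDC1 level of 12.1 CPM lay in the range of the Control lymphocyte classes. The macrophage difference was smaller on thinned cells. The cDC1 value rested on 23 DOPAC UMIs and the NK value on 9. The difference between classes was not tested.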

How the results depend on the processing

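Of 79 log2 ratios with enough UMIs, 38 had a counting interval that excluded 1. In 378 recalculations of these 38, 10 changed direction, in 8 of the ratios, and 32 moved beyond their counting interval. Keeping doublets, the 5% mitochondrial limit, other scalings and 0.5 counts added changed none of the 79. Csf1 in CD8 T cells (3.03) was 1.78 on thinned cells (1 and 48 UMIs), 0.88 without naive-like cells and 2.27 with a checkpoint gene. Flt3l in CD8 T cells (-0.68) was -1.51, -1.61 and -1.30 under the same settings. Csf2 in CD8 T cells (-2.63) was -1.46 as a mean of per-cell CPM, -4.45 with a checkpoint gene, -0.25 without cycling cells and -0.69 without the cell with the most UMIs. Csf1r was -0.11 on thinned and -0.46 in macrophages with neither state gene (main value -0.61), and -0.42 on thinned classical monocytes (-0.16). Summing the beta chain genes gave -0.23 in classical monocytes, in place of -0.41 for Csf2rb and 0.54 for Csf2rb2, and turned Csf2rb2 to -0.11 in macrophages, -0.14 in cDC1 and -0.20 in mature dendritic cells. Csf2rb turned to -0.92 in other T cells and 0.66 in cDC1 on thinned cells (5 and 10 UMIs). Csf2rb2 turned to -0.94 without naive-like cells and -0.090 with a checkpoint gene in CD8 T cells, and to -0.043 in macrophages with Cxcl9, where Flt3 turned to 1.02. The causes of these changes were not tested. Csf1 in NK cells and Flt3 in cDC1 and mature dendritic cells did not move under any alternative that gave a value. No paired analysis was possible because each group has 1 library and the groups share 1 replicate number. Csf2 in CD8 T cells rests on 1 Control cell, and cDC2 and plasmacytoid dendritic values on 72 and 64 DOPAC cells.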

Other observations

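In Control CD8 T cells, 4 of the 9 cells with a Ccl1 UMI held 39 of the 41 Csf2 UMIs, 32 of them in 1 cell (225 CPM over the 9 cells). The 9 cells held 3 of the 25 Csf1 UMIs (17.3 CPM, 3.57 to 50.6). The 642 cells without Ccl1 had 4.14 CPM of Csf1 (2.59 to 6.27), and the intervals overlapped. In DOPAC the 46 cells with Ccl1 had 7.38 CPM of Csf2 and 36.9 CPM of Csf1, and the 3148 without had 1.05 and 38.7 CPM.

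NK cells were split by Itga2, an integrin of conventional NK cells, and by Itga1, Cxcr6 and Gzmc, which mark an NK type described in tumors. In Control, Csf1 was at 2.80 CPM in cells with Itga2 only (8 UMIs), 9.35 CPM with the tumor-type genes only (4 UMIs), 9.95 CPM with both (4 UMIs) and 5.24 CPM with neither (11 UMIs). The intervals overlapped, and each DOPAC subset had at most 2 Csf1 UMIs.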
